A study of Homo sapiens with 6 samples.

Results

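Iron uptake, storage and export were followed through 10 human genes, taken by gene symbol: TFRC, SLC11A2 and STEAP3 for import, FTH1, FTL and NCOA4 for storage and its turnover, SLC40A1 for export, and ACO1, IREB2 and FBXL5 for iron sensing. All 10 were matched to an Ensembl identifier among the 60612 in the count files, and all 10 passed the filter on low counts that left 17854 genes to test. RNA was sequenced from SKBR3, an established HER2-positive mammary epithelial cancer cell line with an amplified ERBB2 gene, in 6 libraries. The 3 libraries without treatment are called parental here. The other 3, called trastuzumab here, come from SKBR3 cells that spent 30 weeks under an increasing dose of the HER2 antibody trastuzumab, in a study of acquired resistance to it. The labels leave unsaid whether the drug was present at harvest, whether the treated cells are a clone or a mixed population, and whether replicates are separate cultures. The p-values therefore measure the spread among these libraries alone, which may be technical.

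Cells take up iron mostly as transferrin bound to the transferrin receptor, reduce it in the endosome, carry it into the cytosol, and store what they do not use inside ferritin, a shell built from heavy and light chains. Ferroportin is the known cellular exporter. The iron regulatory proteins IRP1 and IRP2 bind short RNA hairpins called iron-responsive elements when iron is scarce. Binding in the 5′ untranslated region of ferritin and ferroportin messages blocks their translation, while binding in the 3′ untranslated region of the receptor message protects it from decay. Ferritin RNA is therefore no measure of ferritin protein, and neither protein nor iron was measured here.

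The elements are shown because several of the genes below carry them and are read by the same sensors. A search of GENCODE 29 transcripts on hg38 for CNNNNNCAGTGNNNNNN, in which the base after CAGTG is not G and the 5 bases before the loop pair with the last 5 (G with T allowed), on the transcript strand, found the following 17-base matches in the members. Capitals mark the 6-base loop, and letters are DNA, 5′ to 3′ on the transcript strand.
FTH1 5′ region, chr11:61967580-61967596, minus strand: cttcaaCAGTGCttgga
FTL 5′ region, chr19:48965341-48965357, plus strand: cttcaaCAGTGTttgga
SLC40A1 5′ region, chr2:189580667-189580683, minus strand: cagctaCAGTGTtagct
TFRC 3′ region, chr3:196050985-196051001, minus strand: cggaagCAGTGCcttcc
TFRC 3′ region, chr3:196050581-196050597, minus strand: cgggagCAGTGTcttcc
TFRC 3′ region, chr3:196050516-196050532, minus strand: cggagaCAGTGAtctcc
TFRC 3′ region, chr3:196050469-196050485, minus strand: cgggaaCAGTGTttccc
The FTH1 and FTL elements differed at 1 of 17 positions, counted from 1 at the 5′ end, by the substitution C12T. TFRC held 4 matches within 533 bases. The SLC40A1 match lay in 1 of its 5 annotated coding transcripts, and each TFRC match in 3 of 5. The FTH1 match lay in 9 of 10, and the FTL match in 1 of 1. Gene counts do not separate transcripts with and without a match. Such a match was rare in the annotation: 27 of 18988 protein-coding genes with a 5′ untranslated region held it there (0.142%), and 132 of 19401 with a 3′ untranslated region held it there (0.68%). SLC11A2, which has a known variant element in some of its transcripts, gave no match to these letters. A match is a stretch of letters and not a measured site.

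The libraries held 71015138 to 82857810 counts, and a count of 0 allowed at most 0.0372 to 0.0428 CPM (3 counts, counting error only). Levels are CPM (read counts scaled by the library total with its TMM factor), given as mean ± SD with n = 3 per group. Changes are log2 differences, trastuzumab minus parental, with their standard error (SE) from edgeR's quasi-likelihood test, and a gene is called changed at a Benjamini-Hochberg adjusted p below 0.05 over all 17854 genes. All 7 luminal epithelial markers were present, with a summed level of 18460 to 20213 CPM in parental and 21414 to 23009.7 CPM in trastuzumab libraries. Of the 6 hepatocyte markers ALB and HAMP were at 0, and their sum was at most 3.54 CPM in any library. The 6 fibroblast markers summed to 9.20 to 19.2 CPM in parental and 6.07 to 10.9 in trastuzumab libraries, none of them at 0. The 7 macrophage markers summed to 67.9 to 91.2 CPM in parental and 56.8 to 63.5 in trastuzumab libraries, and only CD68 and CSF1R reached 1 CPM. The 4 endothelial markers summed to 28.6 to 31.7 and 79.0 to 86.0 CPM, with VWF and CDH5 alone reaching 1 CPM. Whether other cells took part in any result was not tested. In bulk RNA, fewer cells of a kind and less RNA per cell cannot be told apart.

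Cells taken through the trastuzumab treatment had more RNA of the transferrin receptor and of the ferritin light chain, and less of the RNAs for the sensors IRP1 and IRP2. FTL was 2.05-fold higher and TFRC 1.45-fold higher, while IREB2 was 1.99-fold and ACO1 2.45-fold lower. The heavy chain FTH1, the more abundant ferritin message by counts, did not pass the test. Of the 10 members 3 rose (TFRC, FTL and SLC11A2), 5 fell (IREB2, ACO1, NCOA4, SLC40A1 and FBXL5) and 2 did not pass (FTH1 and STEAP3). The 8 called members make 80.0%, where 49.3% of all tested genes were called, 23.9% higher and 25.4% lower. Many tested genes are scarcer than the members. Where both groups had to average 1 CPM or more, 8308 of 12764 genes were called, and 3 members were higher and 5 lower. The members were chosen with earlier results of these data known, so their share is a description only. The groups did not overlap for 9 of the 10, and for 57.5% of all tested genes. The median log2 change of the members was -0.14, and that of all tested genes -0.0057.

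**Figure D1:**
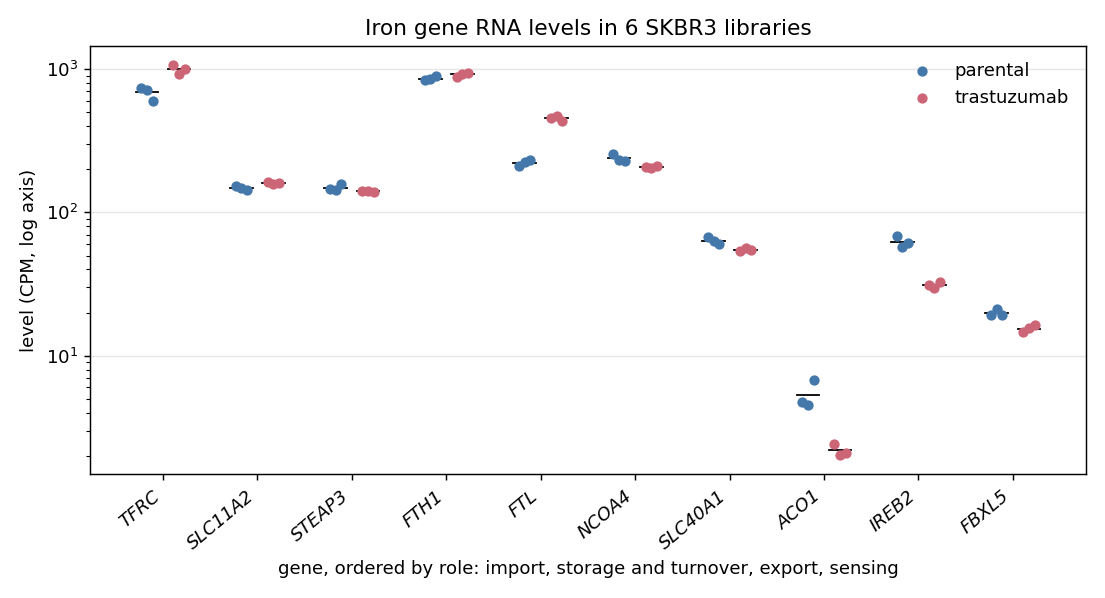
Level of each iron gene in CPM on a log axis, with a point per library (parental blue, trastuzumab red) and a black line at each group's mean. FTL and TFRC sit higher and IREB2 and ACO1 lower in all 3 trastuzumab libraries, while the FTH1 groups overlap.

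Fold changes in this series moved with base composition, and the members span 38.3% to 56.9% GC. Over 11666 protein-coding genes of at least 1 CPM, the Spearman correlation of the log2 change with the GC content of the longest transcript was 0.625 (across genes, which are not independent replicates), and the median change went from -0.49 in the lowest of 5 equal GC classes to 0.36 in the highest. A corrected fit was therefore run that removes from each library a spline trend on GC content and exonic length. Real changes that are linked to either property are removed along with the trend. In it 39.2% of 17649 genes were called, 17.5% higher and 21.7% lower. Of the members 3 were higher (TFRC, FTL and SLC11A2), 4 lower (IREB2, ACO1, STEAP3 and FTH1) and 3 not past the test (SLC40A1, NCOA4 and FBXL5). Corrected values stand beside each member below, and beside some of the other named genes.

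TFRC, the transferrin receptor (ENSG00000072274, chr3:196027183-196082189, minus strand), was among the most abundant members. Its level was 742, 721 and 602 CPM in parental replicates 1 to 3 and 1062, 926 and 1006 CPM in trastuzumab replicates 1 to 3. Every trastuzumab library lay above every parental library, and parental replicate 3 was the lowest of all 6. The mean went from 688 ± 75.2 to 998 ± 68.7 CPM, a log2 change of 0.54 ± 0.087 SE (edgeR adjusted p = 0.00127). The change was larger in the corrected fit, 0.92 (edgeR adjusted p = 2.57e-06). Protein-coding genes within 2 points of its GC content had a median change of -0.39, so TFRC rose where genes of like composition were mostly lower. The rise lay between 0.45 and 0.59 when each library was left out in turn.

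SLC11A2 encodes DMT1, which carries ferrous iron out of the endosome (ENSG00000110911, chr12:50979401-51028566, minus strand). Parental libraries held 153, 148 and 142 CPM and trastuzumab libraries 164, 159 and 162 CPM. The groups did not overlap in CPM, but the gap between them was narrow beside the spread. In FPKM, levels scaled by gene length, they did overlap, with parental replicate 1 (14.03) above trastuzumab replicate 2 (13.77). The log2 change was 0.13 ± 0.046 SE (edgeR adjusted p = 0.0273). Leaving out parental replicate 2 ended the call (edgeR adjusted p = 0.0753), as did leaving out parental replicate 3 (0.0644), trastuzumab replicate 1 (0.0928) or trastuzumab replicate 3 (0.0827). Library totals without TMM ended it too (0.205), as did limma on log2(FPKM + 1) (log2 change 0.056, limma adjusted p = 0.33). The call was lost in 9 of 20 alternatives. In the corrected fit the change was 0.52 (edgeR adjusted p = 7.53e-09). Gene counts do not separate its transcripts with and without an iron-responsive element.

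STEAP3 is the endosomal ferrireductase that turns ferric into ferrous iron after the receptor has brought it in (ENSG00000115107, chr2:119223831-119265652, plus strand). It stood at 145, 142 and 158 CPM in parental and at 141, 141 and 139 CPM in trastuzumab libraries. All trastuzumab libraries lay just below the parental ones, and parental replicate 3 was the highest. The log2 change of -0.08 ± 0.049 SE did not pass (edgeR adjusted p = 0.199). In the corrected fit STEAP3 fell by 0.41 on the log2 scale (edgeR adjusted p = 3.53e-07), and genes of like GC content had a median change of 0.28. STEAP3-AS1, which overlaps it on the other strand, had 553 counts over all libraries against 65005 for STEAP3.

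Of the ferritin chains, the light chain passed the test and the heavy chain did not. FTL, the light chain (ENSG00000087086, chr19:48965301-48966878, plus strand), stood at 212, 224 and 232 CPM in parental and at 458, 473 and 437 CPM in trastuzumab libraries. The lowest trastuzumab library was far above the highest parental library, and the spread within each group was small. The mean went from 223 ± 9.94 to 456 ± 18.1 CPM, a log2 change of 1.03 ± 0.047 SE (edgeR adjusted p = 7.98e-11). Genes of like GC content had a median change of 0.28, and the corrected change of FTL was 0.60 (edgeR adjusted p = 7.36e-10).

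FTH1, the heavy chain that carries the ferroxidase activity of ferritin (ENSG00000167996, chr11:61959718-61967660, minus strand), stood at 834, 852 and 895 CPM in parental and at 882, 931 and 940.3 CPM in trastuzumab libraries. The groups overlapped, with parental replicate 3 above trastuzumab replicate 1. The log2 change was 0.09 ± 0.043 SE (edgeR adjusted p = 0.0833). It passed as a rise with DESeq2 (adjusted p = 0.0324), with upper quartile factors and without parental replicate 3 (edgeR adjusted p = 0.0191), and as a fall in the corrected fit (-0.09, edgeR adjusted p = 0.0385), so its direction was not settled. FTH1 overlaps BEST1 on the other strand, which had 4305 counts over all libraries against 401854 for FTH1.

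Ferritin genes have many processed copies in the genome that can take or lose reads. The 25 annotated FTH1 copies together held 0.873 to 1.22% of the FTH1 counts in each library, and the 16 FTL copies 0.0998 to 0.224% of the FTL counts. FTH1P2 (3.32 ± 0.317 and 3.34 ± 0.808 CPM) and FTH1P8 (3.04 ± 0.72 and 3.02 ± 0.581 CPM) were the only copies with a mean of at least 1 CPM. Reads placed by the authors on the parent gene or dropped as ambiguous cannot be told apart from the counts.

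Because both chains are counted in the same library, their ratio does not depend on library scaling. In FPKM, which is per length, FTH1 over FTL was 1.71, 1.65 and 1.68 in parental and 0.838, 0.855 and 0.935 in trastuzumab libraries. The heavy chain was above the light chain in every parental library and below it in every trastuzumab library. The mean ratio went from 1.68 ± 0.0297 to 0.876 ± 0.0516, a log2 difference of -0.94 (two-sided exact permutation test, p = 0.1, the smallest that 3 against 3 can give). It was -0.69 between the corrected changes. That is smaller in size than the parental log2 ratios (0.722 to 0.773), so the crossing holds for the deposited FPKM values and was not shown with the trend removed. The deposited FPKM used a length near the whole exonic length (2030 bases for FTH1 and 878 for FTL in GENCODE 29), so which chain is the higher depends on that length, while the difference between groups does not.

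TFRC over FTH1 in FPKM was 0.229, 0.218 and 0.173 in parental and 0.31, 0.255 and 0.275 in trastuzumab libraries. Every trastuzumab ratio lay above every parental ratio. The mean went from 0.206 ± 0.0294 to 0.28 ± 0.0274, a log2 difference of 0.45 (two-sided exact permutation test, p = 0.1, again the smallest possible), and it was 1.00 between the corrected changes.

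**Figure D2:**
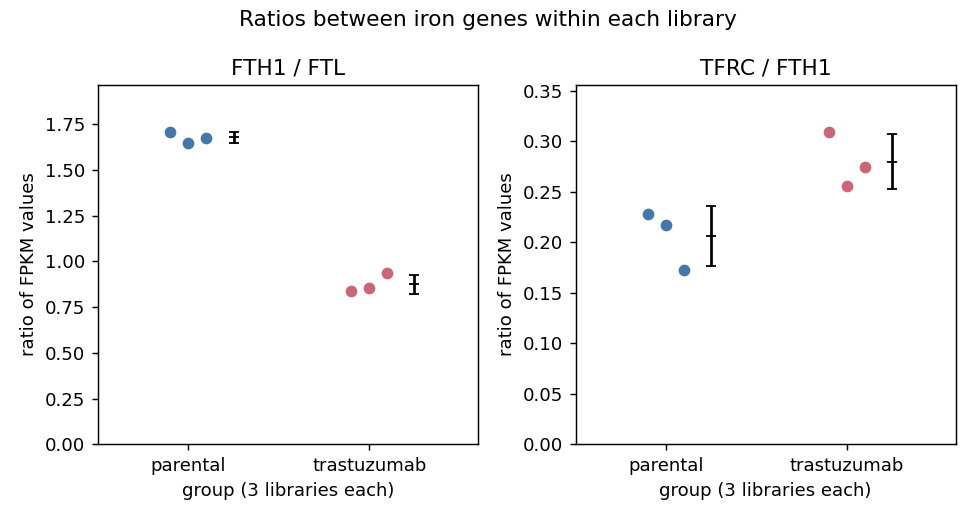
Ratio of FPKM values of FTH1 to FTL (left) and TFRC to FTH1 (right) in each library, with the group mean and SD in black. The mean heavy to light chain ratio is 1.68 in parental and 0.876 in trastuzumab libraries, the mean receptor to heavy chain ratio 0.206 and 0.28, and the groups do not overlap in either.

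NCOA4, the receptor that delivers ferritin to autophagosomes so that its iron can be released (ENSG00000266412, chr10:46005088-46030714, minus strand), fell slightly. It stood at 255, 231 and 229 CPM in parental and at 207, 203 and 212 CPM in trastuzumab libraries. The groups did not overlap, and parental replicate 1 was the highest. The log2 change was -0.20 ± 0.049 SE (edgeR adjusted p = 0.0025). Its drop was smaller than the median of -0.34 of genes of like GC content, and in the corrected fit it was -0.01 (edgeR adjusted p = 0.837).

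SLC40A1, ferroportin (ENSG00000138449, chr2:189560579-189583758, minus strand), also fell slightly. Its level was 66.9, 62.7 and 60.2 CPM in parental and 53.6, 56.3 and 55.1 CPM in trastuzumab libraries. All trastuzumab libraries lay below the parental ones. The log2 change was -0.20 ± 0.059 SE (edgeR adjusted p = 0.00914), against a median of -0.37 for genes of like GC content and a corrected value of 0.02 (edgeR adjusted p = 0.822). In FPKM, TFRC over SLC40A1, a pair chosen after the values were seen, was 5.41 to 6.22 in parental and 8.90 to 10.7 in trastuzumab libraries.

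IREB2 encodes IRP2, the sensor that is degraded when iron is plentiful (ENSG00000136381, chr15:78437431-78501456, plus strand). It stood at 68.1, 57.7 and 61.3 CPM in parental and at 31.2, 29.8 and 32.9 CPM in trastuzumab libraries. The highest trastuzumab library was far below the lowest parental library. The mean went from 62.4 ± 5.33 to 31.3 ± 1.55 CPM, a log2 change of -0.99 ± 0.073 SE (edgeR adjusted p = 1.52e-08). Its transcript had the lowest GC content of the members, genes of like GC content had a median of -0.49, and the corrected change was -0.44 (edgeR adjusted p = 2.19e-05).

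ACO1 encodes IRP1, which is a cytosolic aconitase when it holds an iron-sulphur cluster and binds RNA when it does not (ENSG00000122729, chr9:32384603-32454769, plus strand). Its RNA was the scarcest of the members, at 4.76, 4.50 and 6.77 CPM in parental and 2.41, 2.03 and 2.10 CPM in trastuzumab libraries. The groups did not overlap, and parental replicate 3 stood above the other two. The log2 change was -1.29 ± 0.20 SE (edgeR adjusted p = 4e-05) and the corrected change -1.09 (edgeR adjusted p = 0.000334). Per length, ACO1 held 0.0997, 0.112 and 0.159 of the IREB2 FPKM in parental and 0.108, 0.0975 and 0.0885 in trastuzumab libraries. These shares overlapped between the groups.

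FBXL5, the iron-binding subunit of the ubiquitin ligase that marks IRP2 for degradation (ENSG00000118564, chr4:15604539-15681679, minus strand), fell with them in the uncorrected fit. It stood at 19.3, 21.1 and 19.2 CPM in parental and at 14.6, 15.5 and 16.3 CPM in trastuzumab libraries. The groups did not overlap. The log2 change was -0.36 ± 0.088 SE (edgeR adjusted p = 0.0027), near the median of -0.42 of genes of like GC content, and -0.07 in the corrected fit (edgeR adjusted p = 0.581). FAM200B on the other strand had 1422 counts against 7953 for FBXL5 over all libraries, and with the strand setting of the counting unknown the FBXL5 level is uncertain to that extent.

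**Figure D3:**
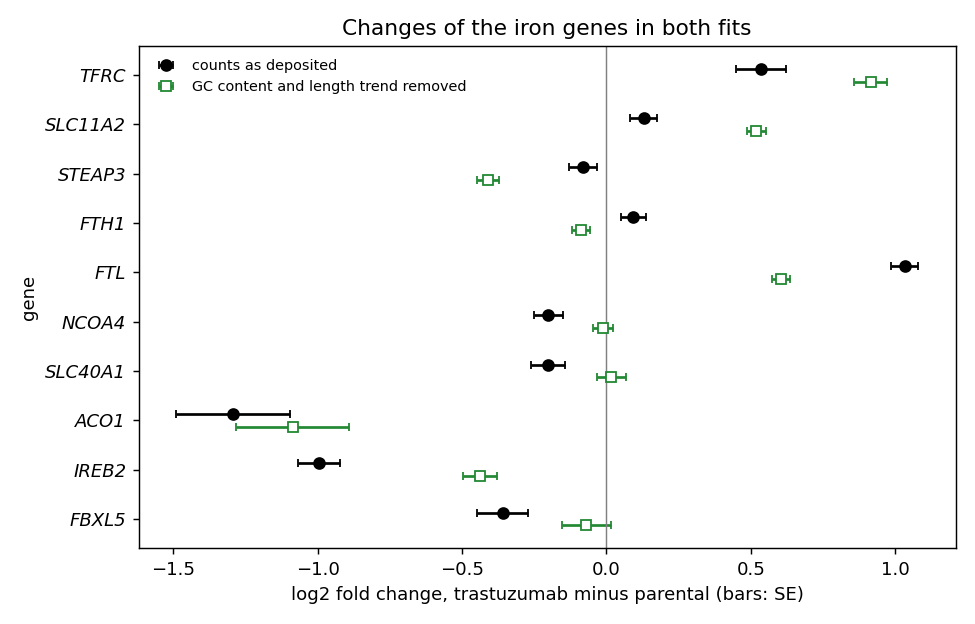
Log2 fold change (trastuzumab minus parental, bars are SE) of each iron gene from the counts as deposited (black) and with the GC content and length trend removed (green). TFRC, FTL and SLC11A2 lie above 0 and IREB2 and ACO1 below 0 in both, while SLC40A1, NCOA4 and FBXL5 move to near 0 and STEAP3 moves to -0.41.

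**Figure D4:**
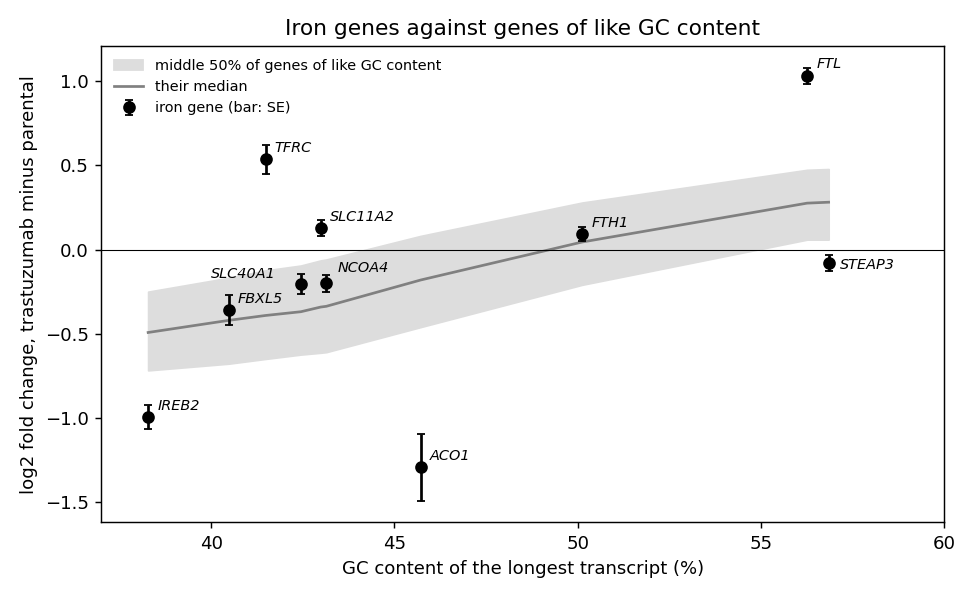
Log2 fold change of the iron genes (points, bars are SE) against the GC content of their longest transcript, over the median (grey line) and middle 50% (grey band) of protein-coding genes within 2 points of that GC content. TFRC, SLC11A2 and FTL lie above the band, IREB2, ACO1 and STEAP3 below it, and the remaining members inside it.

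In FPKM over all libraries the order of levels was FTH1 (390.0), FTL (340.0), TFRC (94.8), NCOA4 (48.1), STEAP3 (27.8), SLC11A2 (13.7), SLC40A1 (12.4), IREB2 (3.84), FBXL5 (3.31) and ACO1 (0.44). The order within the groups differed: FTL lay below FTH1 in parental (230.5 ± 8.40 against 387 ± 10.1 FPKM) and above it in trastuzumab libraries (449.5 ± 17.8 against 393 ± 12.4 FPKM). The neighbours SLC11A2 and SLC40A1 could not be separated in the parental libraries, at 13.5 ± 0.607 and 13.5 ± 0.831 FPKM, but stood at 14.0 ± 0.25 and 11.2 ± 0.25 FPKM in the trastuzumab libraries. IREB2 lay above FBXL5 in every parental library (4.83 to 5.72 against 3.62 to 4.06 FPKM) and below it in every trastuzumab library (2.36 to 2.60 against 2.68 to 2.96 FPKM). These orders are of the deposited FPKM values, which depend on the gene length used and hold the GC content trend. The corrected changes were -0.44 for IREB2 and -0.07 for FBXL5, and whether their reversal outlasts the correction was not tested. The FBXL5 level is also uncertain because of FAM200B, as given above.

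FTL had the largest change among members of at least 10 CPM, so the genes most like it across the 6 libraries were sought. TPD52L2 (Pearson r = 0.9998 of log2 CPM), PGAP3 (0.9998) and CHD1L (0.9995) came first among 9333 genes of at least 10 CPM. With 6 libraries in 2 groups such values are common, and 509 genes reached 0.99.

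The wider iron pathway was described by 9 lists holding 100 distinct genes, the members among them. Among the 89 that were tested, 34 were called higher and 32 lower (median log2 change 0.049), and the corrected fit called 21 higher and 33 lower (median -0.065). Every count over a list below is to be read against all tested genes, of which 23.9% were higher and 25.4% lower (17.5% and 21.7% in the corrected fit). The members TFRC, SLC11A2, FTH1, FTL, SLC40A1 and NCOA4 each stand in more than a single list.

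For import and reduction, the test called 8 of 13 genes higher (16 were listed) and 1 lower, with a median of 0.54. The corrected fit called 7 higher and 2 lower (median 0.77), and without parental replicate 3 the uncorrected fit also had 2 lower. Between 6 and 8 were higher when single libraries were dropped. The count of higher genes was 8 with limma-voom, 7 with DESeq2 and 5 with limma on the FPKM values. It was 6 when both groups had to average 1 CPM or more, which leaves out SLC11A1 and SCARA5. LCN2, a secreted protein that binds iron-loaded siderophores, rose from 45.4 ± 0.962 to 290.3 ± 14.2 CPM. STEAP4, a plasma membrane and endosomal metalloreductase, rose from 32.5 ± 4.54 to 70.4 ± 4.08 CPM (log2 change 1.11, corrected 1.66). SLC46A1, a folate and haem carrier, rose from 68.4 ± 3.93 to 140.4 ± 1.43 CPM (1.04, corrected 0.85). These genes at least doubled in mean level. SLC11A1, the phagosomal relative of DMT1, rose from 0.98 ± 0.206 to 1.89 ± 0.165 CPM (edgeR adjusted p = 0.00926). Its call was lost in the corrected fit with replicate number added as a covariate (edgeR adjusted p = 0.0552). The ferritin receptor SCARA5, named after its values were seen, was called higher (edgeR adjusted p = 0.0235), from 0, 0.19 and 0 to 0.443, 0.694 and 0.711 CPM, too few counts for its fold to be read. HFE, a partner of the transferrin receptor, had no counts in any library.

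Storage and ferritin turnover moved both ways, with 3 of 8 tested genes called in each direction (median 0.093, corrected -0.05). Without parental replicate 3, 5 were higher, and without parental replicate 1 or 2 or trastuzumab replicate 2, 2 were. TAX1BP1, an autophagy receptor, fell from 143 ± 17.3 to 105 ± 5.27 CPM, and HERC2, the ligase that marks NCOA4 for degradation, from 140.3 ± 5.39 to 122 ± 4.86 CPM. ATG16L1, an autophagosome factor, rose from 34.9 ± 0.529 to 45.1 ± 1.24 CPM. PCBP2, a poly(C)-binding protein that also carries iron, rose from 526 ± 20.6 to 579 ± 13.1 CPM, a small change (0.14, edgeR adjusted p = 0.0129) that no longer passed when parental replicate 1 (0.0548), parental replicate 2 (0.0527) or trastuzumab replicate 2 (0.0527) was left out.

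Export and systemic control had 5 tested genes out of 11, with 1 called higher and 3 lower (median -0.46, corrected -0.38). CP, the secreted ferroxidase ceruloplasmin that works beside ferroportin, rose 3.45-fold from 40.9 ± 5.6 to 141 ± 2.87 CPM (log2 change 1.79 ± 0.086 SE, edgeR adjusted p = 2.04e-08, corrected 2.22). ABCG2, a drug and haem efflux pump, fell from 19.8 ± 0.455 to 3.19 ± 0.0862 CPM (-2.63 ± 0.11 SE, edgeR adjusted p = 2.57e-11, corrected -2.35). FLVCR1, a haem and choline transporter, fell from 36.4 ± 2.02 to 23.2 ± 1.97 CPM. The hormone hepcidin (HAMP) and the ferroxidase HEPH had no counts in any library.

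Every called gene of the iron sensing list fell in both fits. Of 7 tested, 6 were lower and 1 (EPAS1) did not pass (median -0.40), and 4 were lower in the corrected fit (median -0.27). With upper quartile factors 6 were called lower and 1 higher. Beside ACO1, IREB2 and FBXL5, the oxygen-regulated transcription factor HIF1A fell from 106 ± 8.05 to 43.1 ± 4.38 CPM (log2 change -1.30, corrected -0.87). CUL1 (-0.40, corrected -0.27), a scaffold of the ligase that FBXL5 joins, fell from 119.6 ± 3.96 to 90.8 ± 2.04 CPM. SKP1, its adaptor, fell from 90.4 ± 3.57 to 68.3 ± 2.27 CPM but stood at 0.08 in the corrected fit.

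Haem synthesis and breakdown had 5 of 12 tested genes called higher and 3 lower (median 0.087), while the corrected fit called 7 lower and 0 higher (median -0.13). HMOX1, the inducible haem oxygenase that frees iron from haem, fell from 43.8 ± 5.22 to 25.8 ± 1.85 CPM (-0.76, corrected -1.17). CPOX (-0.66, corrected -0.68) and FECH (-0.37, corrected -0.21), late enzymes of haem synthesis, fell in both fits. PPOX, which acts between them, rose in the uncorrected fit alone (0.43, corrected 0.06).

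Iron-sulphur cluster assembly had 13 of 24 genes called higher and 5 lower (median 0.17), and in the corrected fit 8 higher and 2 lower (median 0.034). With each library left out in turn, 9 to 13 were higher and 3 to 4 lower. The 5 lower became 3 without parental replicate 1 or 2 or trastuzumab replicate 2 or 3. FDXR, the reductase that feeds electrons to cluster assembly, rose from 23.6 ± 1.68 to 37.2 ± 0.959 CPM (0.65, corrected 0.25). The cytosolic assembly factors CIAO3 (0.55, corrected 0.30) and NUBP2 (0.52, corrected 0.15) and the mitochondrial factor LYRM4 (0.47, corrected 0.60) rose in both fits.

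Mitochondrial iron handling had 4 of 7 genes called lower and 1 higher (median -0.21, corrected -0.19). CISD1, an iron-sulphur protein of the outer mitochondrial membrane, fell from 53.5 ± 0.576 to 35.2 ± 1.16 CPM (-0.60, corrected -0.20), and the inner membrane transporter ABCB10 from 28.5 ± 0.287 to 22.6 ± 1.11 CPM (-0.34, corrected -0.23). Their relatives CISD2 (-0.30, corrected 0.15) and CISD3 (0.39, corrected 0.0017) had no call in the corrected fit.

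Among transcripts with an iron-responsive element, 3 of 9 tested genes were called higher and 3 lower (median 0.067, corrected -0.048), beside 23.9% and 25.4% of all tested genes. Outside the members, CDC14A, a phosphatase, fell from 5.62 ± 0.222 to 3.06 ± 0.109 CPM (-0.88, corrected -0.53), and the kinase CDC42BPA from 52.2 ± 3.44 to 36.0 ± 1.07 CPM (-0.54, corrected -0.12). In the uncorrected fit, genes with a known element in the 3′ region were higher (TFRC, SLC11A2) or lower (CDC14A), and those with an element in the 5′ region were higher (FTL), lower (SLC40A1) or not called (FTH1).

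**Figure D5:**
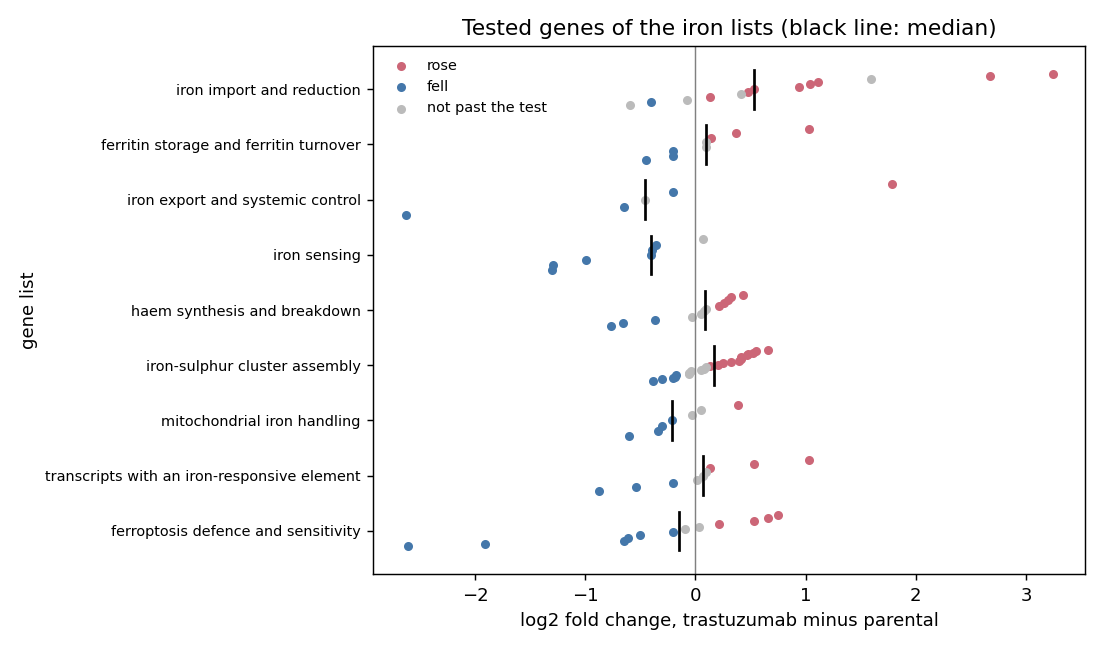
Log2 fold change (trastuzumab minus parental) of each tested gene in the 9 iron lists, coloured by whether it rose, fell or did not pass the edgeR test, with a black line at each list's median. Import genes lie mostly to the right (median 0.54) and sensing genes to the left (median -0.40).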

How the data were processed

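The authors deposited raw counts per Ensembl gene, whole numbers with no normalization, for each of the 6 libraries, and FPKM values (scaled by gene length and library size). Per the labels' protocols, libraries came from 1 µg of total RNA with a directional kit. The submitters' processing notes name STAR 2.4.2a and hg38. The counting program, its strand setting and its annotation were not given in the sources used here. The members and lists were chosen with earlier results of these data known.

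Symbols came from a gene name table that matched all 133 listed symbols. Positions, transcript GC content and exonic lengths were read from GENCODE 29. The test on counts was the robust quasi-likelihood F test of edgeR 4.0.16 (R 4.3.3), with TMM factors, genes kept by filterByExpr, and no covariate. SE is the log2 change over the square root of F. The corrected fit uses splines with 5 degrees of freedom as offsets. FPKM ratios were compared by exact permutation tests. Alternatives used limma 3.58.1 and DESeq2 1.42.0, other factors and filters, pseudocounts of 1 and 0.1 on the FPKM values, and each library left out. On simulated counts of 17858 genes for this comparison, 65 of 67 genes changed 2-fold and 49 of 67 changed 1.5-fold were recovered. The simulation had less spread between libraries than the data, where the common biological coefficient of variation was 0.187. It changed few genes, all of them well counted, and held no GC trend, so these shares may overstate recovery in the real libraries. Pairs of libraries within a group differed by more than sampling noise (chi-square per degree of freedom 20.0 to 30.9).

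Named genes are the 10 members, up to 4 further changed genes per list with the largest change and at least 1 CPM in the higher group, the 3 genes that most resemble the most changed member above 10 CPM, processed copies of at least 1 CPM, and LCN2. SCARA5, GPX4, HFE, HAMP, HEPH and EPAS1 fall outside this rule and were named after their values were seen.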

Additional observations from a re-analysis of the deposited data

How the results depend on the processing

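FTL, IREB2 and ACO1 kept their direction and call under every alternative that gave a value, leaving out any library included. TFRC lost its call only with limma on log2(FPKM + 1) without a filter (adjusted p = 0.0552), where 1 member was higher in place of 3. The corrected fit turned FTH1 (-0.088), SLC40A1 (0.018), SKP1 (0.079) and CISD2 (0.15), gave 21 pathway genes higher in place of 34, and ended the calls of NCOA4 and FBXL5. With the replicate block added to it the values were -0.088, 0.017, 0.079 and 0.15, and 20 genes were higher. The replicate block alone changed no member's call and gave 8653 called genes in place of 8808. Same-numbered libraries correlated in their deviations from the group means at r = 0.0488, 0.249 and 0.344. Parental replicate 1 correlated slightly better with trastuzumab replicate 2 (0.0687). Parental replicates 2 and 3 each correlated best with their own number, and their cross pairs were at -0.248 and -0.283. The main fit did not take the numbers as pairs, and whether same-numbered libraries share a batch was not tested. Without each library in turn, 2 to 3 members were higher and 5 lower, and 28 to 35 pathway genes were higher and 29 to 32 lower. The log2 differences of the ratios were -0.99 to -0.91 for FTH1 over FTL and 0.32 to 0.52 for TFRC over FTH1. STEAP3 passed as a fall with library totals alone (-0.14), with limma on log2(FPKM + 1) (-0.14) and log2(FPKM + 0.1) (-0.15), and in the corrected fit with and without the block (-0.41 in each). Causes of these shifts, and the effect of depth on the calls, were not tested.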

Other observations

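Genes that set how cells withstand iron-driven lipid peroxidation (ferroptosis) included calls in both directions: of 12 tested, 4 rose, 6 fell and 2 did not pass (median -0.15, corrected -0.35 with 3 higher and 6 lower). Of all tested genes 49.3% were called, 23.9% higher and 25.4% lower. SLC7A11, the cystine carrier that feeds glutathione synthesis, fell from 10.8 ± 1.34 to 2.89 ± 0.25 CPM (log2 change -1.91 ± 0.15 SE, edgeR adjusted p = 2.53e-08, corrected -1.29). Its partner chain SLC3A2, which also serves other amino acid carriers, rose from 671 ± 57.5 to 1060.5 ± 30.7 CPM (0.66, corrected 0.34). AIFM2, also called FSP1, which regenerates a lipid-soluble antioxidant, rose from 72.5 ± 2.07 to 122 ± 4.77 CPM (0.75, corrected 0.45). ACSL4, which loads polyunsaturated fatty acids into lipids, was scarce and fell from 0.619 to 1.37 CPM in the parental libraries to 0.0571, 0.0496 and 0.399 CPM in the trastuzumab libraries (log2 change -2.61 ± 0.70 SE, edgeR adjusted p = 0.00713). Its change was -4.26 without trastuzumab replicate 3, and its call was lost with limma on log2(FPKM + 1) without a filter (adjusted p = 0.079). When both groups had to average 1 CPM or more, which leaves out ACSL4, 5 genes of the list were lower and 4 higher. GPX4, the lipid peroxide reductase, named after its values were seen, rose without the correction (0.21, edgeR adjusted p = 0.000846) and fell with it (-0.24, edgeR adjusted p = 3.53e-05).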
